A study of Mus musculus with 21 samples.

Results

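RNA from condensing spermatids, the haploid cells in which histones give way to protamines, was compared between *H2al2* KO and wild-type mice. The comparison took all 6 libraries labelled as condensing spermatids, 3 of each genotype, out of the 21 libraries of the series, and covered all genes. *H2al2* encodes H2A.L.2, a histone H2A variant of late spermatids that opens nucleosomes to transition proteins. The transition proteins TP1 and TP2 in turn guide the assembly of protamines on DNA, and male mice without H2A.L.2 are known to be sterile. The question put to these libraries was whether spermatids that lack this variant also differ in their RNA, and, where no difference was found, how large a difference the data still allow.

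The study fractionated mouse testis cells and sequenced total RNA depleted of ribosomal RNA from pachytene spermatocytes, round spermatids, condensing spermatids and spermatozoa of both genotypes. The labels give tissue (testis), cell type and genotype (H2al2 KO or H2al2 WT) and no further allele or treatment. Strain, age, number of animals and the way the KO was made are not given in the sources used here, and the labels do not say that the replicates came from separate animals. The study calls its replicates biological and those of round spermatids independent. Without a statement on animals, p-values measure the spread between these libraries. Fractionation enriches a cell type without isolating it. In such bulk samples fewer cells of a type and less RNA per cell cannot be told apart. Counts on genes ranged from 6872271 to 7400817 in the KO libraries and from 5876464 to 6676636 in wild type, so that the limit set by a count of 0, taken as 3 counts, was 0.405 to 0.511 CPM (counts scaled to a library of 1000000), counting error only. Wild-type replicate 3 stood apart from the other libraries, with a root mean square log2 difference over genes of 0.422 and 0.458 to the other wild-type replicates, while the KO replicates differed from each other by 0.314 to 0.344. RNAs that mark elongating and condensing spermatids were abundant in all 6 libraries. Such RNAs were also abundant in round spermatids, and so do not by themselves set these libraries apart from that stage. With 18 libraries of 3 stages scaled together, mean *Prm1* was 3773 CPM in KO round and 3663 CPM in KO condensing spermatids. In wild type it was 3828 and 4037 CPM, and mean *Prm2* was 7267 and 9536 CPM. The 13 marker genes of elongating and condensing spermatids summed to 30533 to 45406 CPM in KO and 31822 to 47092 CPM in wild type, led by *Prm2*.

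The gene of H2A.L.2 is listed in the count tables as *H2afb1*, read here as an older symbol of *H2al2a*. That symbol has also named *H2ab1* on the X chromosome, which has a separate entry in the count tables. *H2al2a* lies on mouse chromosome 2 at positions 17996417 to 17996958 (GRCm38, minus strand). Its coding sequence, within a single exon, runs from 17996538 to 17996873. No other annotated gene overlaps *H2al2a*. The Y chromosome carries related copies, *H2al2b* and *H2al2c*, each with 92.3% of coding bases identical to those of *H2al2a*. Reads that align to more than 1 place were not counted. The first 300 coding bases are therefore shown to make clear how far reads from these genes can be separated. The Y copies have the same coding sequence as each other and differ from *H2al2a* at 26 of 336 bases, 25 of them within the stretch shown (capitals in the second line, GENCODE annotation of GRCm38).
H2al2a: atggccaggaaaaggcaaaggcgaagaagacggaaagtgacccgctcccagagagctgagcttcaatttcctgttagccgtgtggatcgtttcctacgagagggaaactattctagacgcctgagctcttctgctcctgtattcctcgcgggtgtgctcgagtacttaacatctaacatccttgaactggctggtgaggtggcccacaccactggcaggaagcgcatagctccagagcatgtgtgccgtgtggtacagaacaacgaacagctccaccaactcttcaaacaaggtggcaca
H2al2b: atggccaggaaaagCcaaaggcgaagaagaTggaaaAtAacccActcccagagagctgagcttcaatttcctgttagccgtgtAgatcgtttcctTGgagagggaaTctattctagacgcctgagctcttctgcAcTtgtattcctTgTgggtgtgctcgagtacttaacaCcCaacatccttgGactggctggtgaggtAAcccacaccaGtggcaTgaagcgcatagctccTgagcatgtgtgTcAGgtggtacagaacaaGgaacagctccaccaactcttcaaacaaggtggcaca
None of the 468 windows of 75 bases, the read length, in the *H2al2a* transcript occurs without mismatch in the annotated transcript of another gene. The Y copies, listed as *Gm16501* and *Gm6026*, had 0 counts in all 6 libraries. Reads from their shared coding sequence align to both copies and were not counted. The 0 counts therefore do not show that these copies are silent.

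*H2afb1* fell in the KO. It had 184, 258 and 195 counts in the 3 KO libraries and 1236, 1100 and 1423 in wild type. This corresponds to 26.1, 35.3 and 29.3 CPM in KO against 187, 158 and 252 CPM in wild type, or 30.2 ± 4.69 against 199 ± 48.3 CPM (mean ± SD, n = 3 each). All KO libraries were far below all wild-type libraries. The log2 fold change was -2.71 (95% interval -3.06 to -2.37; adjusted p = 9.54e-07, edgeR quasi-likelihood test with Benjamini-Hochberg adjustment). The level in KO was 0.152 times that in wild type (0.120 to 0.194). The counts cover the whole gene and do not show which part of it the remaining reads came from. In the tested genes the drop of the targeted gene was the only difference that passed an adjusted p of 0.05, 1 of 13734 genes or 0.00728%.

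**Figure D1:**
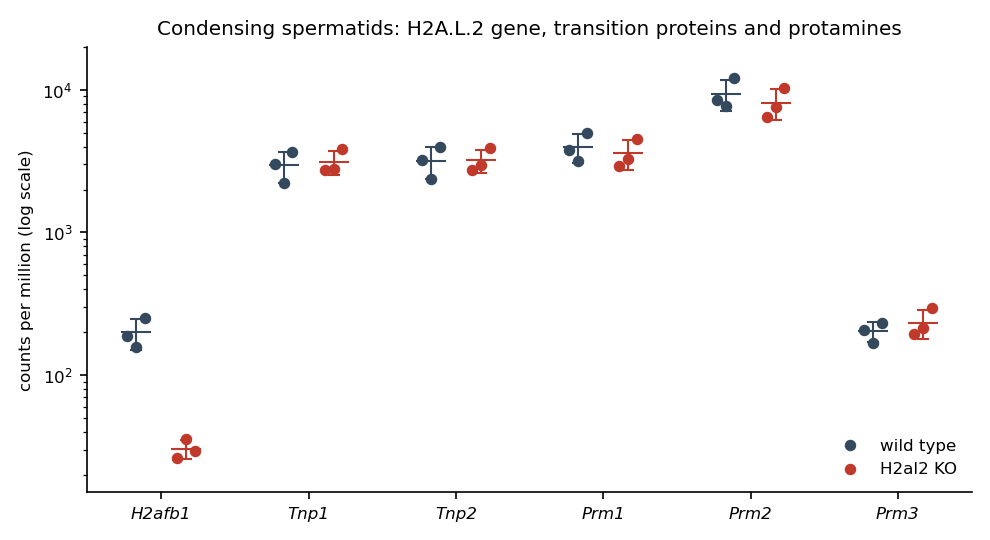
CPM (log scale) in each library for the H2A.L.2 gene *H2afb1*, the transition protein genes and the protamine genes; points are libraries, wide bars the mean and whiskers the SD of 3 replicates, with wild type in dark blue and *H2al2* KO in red. *H2afb1* lies between 26.1 and 35.3 CPM in KO and between 158 and 252 CPM in wild type, while the libraries of the genotypes overlap for the 5 other genes.

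No gene was higher in KO at an adjusted p of 0.05 in edgeR. At an unadjusted p of 0.05, 367 genes (2.67%) were higher and 503 (3.66%) lower in KO, 6.33% in all. The libraries of the genotypes did not overlap for 794 genes with higher values in KO (5.78%) and 830 with lower values (6.04%). The number called depended on the fit. The DESeq2 Wald test called 13 genes, 3 higher and 10 lower, and edgeR called 3 genes without KO replicate 1, 4 without wild-type replicate 1, 24 without wild-type replicate 2 and 9 without wild-type replicate 3. *H2afb1* was among them in all 15 alternatives, with a log2 fold change between -2.86 and -2.51. No other gene was called in more than 6 of the 15.

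For most genes the intervals were narrow enough to bound the effect. The 95% interval of the KO effect lay within 2-fold in either direction for 12285 of 13734 genes (89.4%) and within 1.5-fold for 8721 (63.5%). The intervals are per gene and are not adjusted for the number of genes. The bound followed the depth. Among the 1843 genes at 1 to 3 CPM the median of the largest fold change inside the interval was 2.04, and 45.9% of these genes were bounded within 2-fold. At 10 to 30 CPM the median was 1.35 and 99.0% were bounded, and at 30 to 100 CPM it was 1.26 and 99.8% were bounded. An interval that reached past 4-fold was left for 34 genes (0.248%), of which 28 were at 1 to 3 CPM, and *H2afb1* was another. The estimate itself was past 2-fold for 56 genes, and the middle 90% of estimates ran from -0.43 to 0.33 on the log2 scale.

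**Figure D2:**
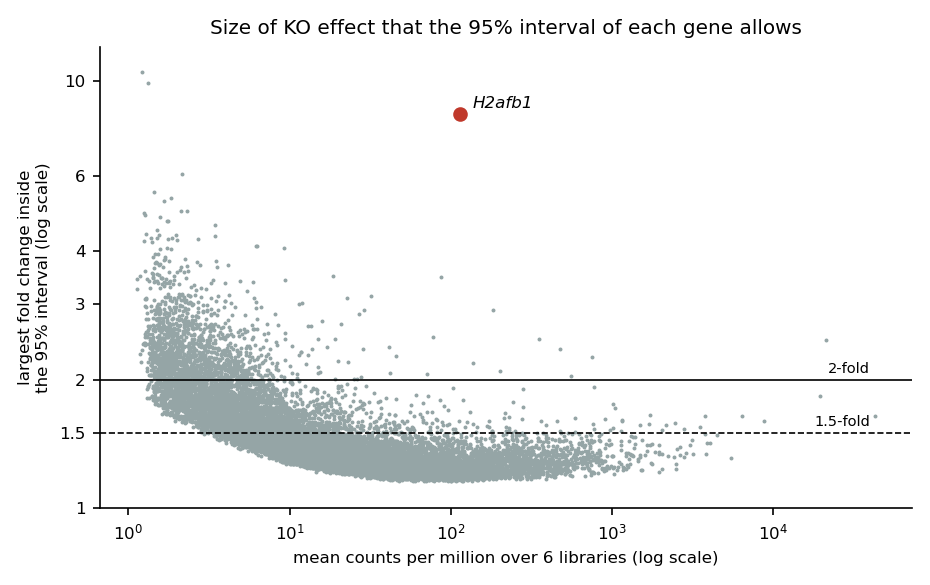
The largest fold change inside the 95% interval of each of the 13734 genes tested (vertical axis, log scale) against its mean CPM over the 6 libraries (horizontal axis, log scale), with lines at 1.5-fold and 2-fold. Most genes above 10 CPM lie under the 2-fold line, *H2afb1* (red) stands at 8.35-fold, and low genes are bounded less tightly.

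The genes of the proteins that act after H2A.L.2 had overlapping levels in both genotypes, where 11.8% of all genes tested did not overlap. *Tnp1*, which encodes transition protein TP1, had 2750, 2792 and 3828 CPM in KO and 2999, 2219 and 3670 CPM in wild type, and *Tnp2*, for TP2, had 2745, 2987 and 3883 CPM against 3211, 2372 and 3965 CPM. For both, the ranges of the genotypes overlapped. The log2 fold change was 0.08 for *Tnp1* (95% interval -0.34 to 0.49) and 0.01 for *Tnp2* (-0.41 to 0.43). *Prm1*, encoding protamine 1, had 2944, 3266 and 4545 CPM in KO and 3793, 3182 and 4959 CPM in the wild-type libraries, with a log2 fold change of -0.15 (-0.58 to 0.28). *Prm2*, encoding the precursor of protamine 2, had 6477, 7556 and 10380 CPM against 8443, 7730 and 12039 CPM, a log2 fold change of -0.21 (-0.68 to 0.26). In both genotypes replicate 3 was the highest library for these genes. *Prm3*, whose acidic protein is not a packaging protamine, was far lower, at 193 to 294 CPM in KO and 168 to 233 CPM in wild type, with a log2 fold change of 0.20 (-0.13 to 0.54). None of the 5 passed the test in any of 14 fits, over which all but *Prm3* changed sign, and their intervals allow at most a 1.60-fold difference, for *Prm2*.

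The other H2A variants did not separate the genotypes either. Of 28 listed genes, 28 were in the tables, 15 passed the filter on low counts and 10 had no count in the 6 libraries. Since reads that align to several places were discarded, the multicopy X-linked *H2al1* genes are counted only where their sequence is unique, and a count of 0 does not show that they are silent. Among the tested genes apart from *H2afb1*, all 14 overlapped between genotypes, with log2 fold changes from -0.17 to 0.33. Of all genes tested, 11.8% did not overlap in either direction. The most abundant was *Hypm* (*H2ap*), at 82.2 to 119 CPM in KO and 76.2 to 133 CPM in wild type, with a log2 fold change of -0.17 (95% interval -0.55 to 0.21). *4930557A04Rik* (*H2al3*) had 41.5 to 46.3 CPM against 36.3 to 62.5 CPM, and *Gm5382* (*H2al1n*) 26.6 ± 5.35 against 27.5 ± 6.96 CPM (mean ± SD, n = 3 each). *Hist1h2aa*, which encodes the testis-specific H2A called TH2A, gave -0.13 (-0.39 to 0.12). *H2afz* (H2A.Z) and *H2afx* (H2A.X) gave -0.07 and -0.06. Of these 14 genes only *Gm14482* (*H2al1g*), with means of 1.58 CPM in KO and 1.27 CPM in wild type, had an interval that reached past 2-fold.

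**Figure D3:**
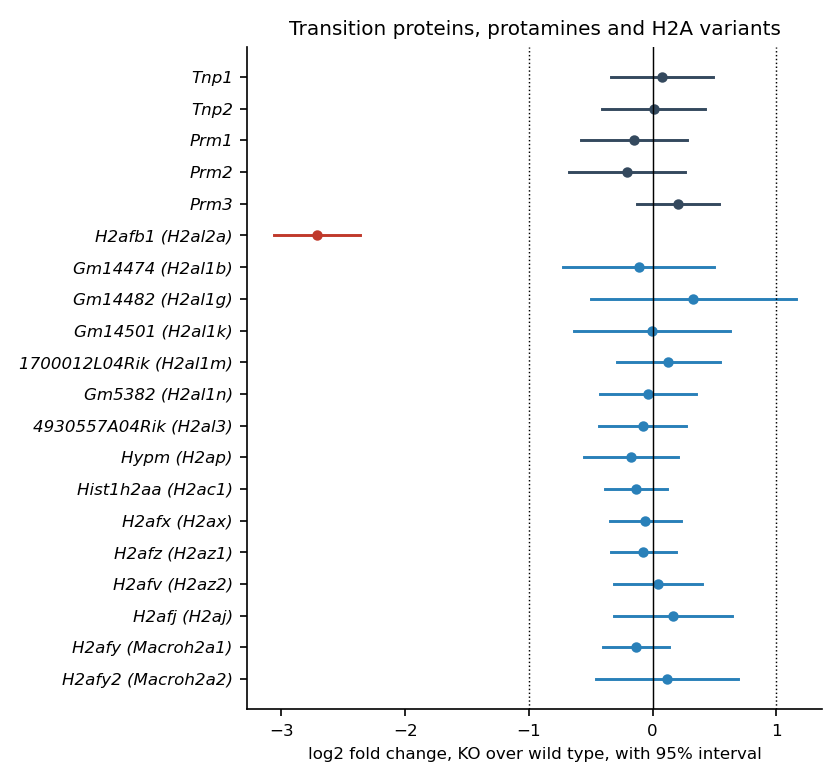
Log2 fold change, KO over wild type, with its 95% interval for the transition protein and protamine genes (dark blue), *H2afb1* (red) and the other tested H2A variants (light blue), current symbols in parentheses; dotted lines mark 2-fold. *H2afb1* lies at -2.71 and the interval of every other gene includes 0.

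For chromatin factors that prepare histone removal no difference between genotypes passed the test. Of 36 chromatin readers, acetyltransferases and histone chaperones, all were tested, none passed even an unadjusted p of 0.05, where 6.33% of all genes did, and all were bounded within 2-fold, as were 89.4% of all genes, with a median log2 fold change of 0.04 against -0.01 over all genes tested. The libraries of the genotypes did not overlap for 4 of the 36, *Brdt*, *Nutm1*, *Nasp* and *Hdac2*, each with higher values in KO. Of all genes tested, 5.78% did not overlap with higher values in KO, and 11.8% in either direction. *Psme4*, the activator of the proteasome that degrades acetylated histones, had 1206, 1355 and 1279 CPM in KO and 1042, 1188 and 1218 CPM in wild type (log2 fold change 0.16, 95% interval -0.12 to 0.43). *Nasp*, a histone H1 and H3 chaperone, had 976 to 1140 CPM in KO and 811 to 953 CPM in wild type. Its log2 fold change of 0.22 (-0.06 to 0.50) did not pass. *Brdt*, the bromodomain protein that reads hyperacetylated histone H4, and *Nutm1*, the testis factor that recruits the acetyltransferase, gave 0.20 (-0.03 to 0.43) and 0.19 (-0.03 to 0.41). Among other testis histones, *H1fnt* (a linker histone of condensing spermatids) had 586 to 800 CPM in KO and 584 to 873 CPM in wild type, *Hils1* (another one) 484 to 560 CPM against 462 to 586 CPM, and *Hist1h2ba* (TH2B) 217 to 254 CPM against 171 to 255 CPM. All 7 tested members of that list overlapped and were bounded within 2-fold.

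No gene with higher counts in KO passed the threshold, and *Sptbn4* and *Ccdc7a* came nearest to it. The smallest p belonged to *Sptbn4* (GRCm38 chr7:27356383-27447704), which encodes a spectrin of the membrane skeleton, with 52.7, 51.3 and 74.3 CPM in KO and 31.3, 34.5 and 30.6 CPM in wild type. Its log2 fold change was 0.88 (SE 0.14, adjusted p = 0.0657, edgeR). *Ccdc7a* had 199, 316 and 239 CPM in KO and 119, 148 and 77.6 CPM in wild type, with a log2 fold change of 1.12 (SE 0.20, adjusted p = 0.108). *Vav2*, encoding a guanine nucleotide exchange factor, had similar values in the KO libraries (116, 124 and 125 CPM) and uneven ones in wild type (54.2, 81.4 and 21.3 CPM), a 2.30-fold difference (95% interval 1.53 to 3.47, adjusted p = 0.389). *Mrpl33*, a protein of the mitochondrial ribosome, had 19.0 to 22.1 CPM in KO against 12.2 to 14.8 CPM in wild type, with a log2 fold change of 0.59 (adjusted p = 0.389). The other 4 genes chosen by the same rule were *4930429F24Rik*, *Spata31*, *Gm5142* and *1700008J07Rik*, with log2 fold changes of 0.80, 0.47, 0.55 and 0.43 and adjusted p between 0.412 and 0.446. *Sptbn4* was called in 5 of 15 alternatives and *Ccdc7a* and *Vav2* in 4 each. Without wild-type replicate 3, the library with the lowest *Ccdc7a* and *Vav2*, their log2 fold changes were 0.91 and 0.84 and both passed (adjusted p = 0.0343 and 0.0189, edgeR). Without wild-type replicate 2 they were 1.35 and 1.67, and both passed as well (adjusted p = 0.0147 each).

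Among the genes with lower counts in KO, *Insl3*, *Cyp17a1* and *Acta2* are on the lists of markers of other testis cells. *Bhmt*, *Lcn2*, *Snord15b* and *Agt* are on no marker list. *Insl3*, a hormone of Leydig cells (GRCm38 chr8:71689252-71690577), had 23.9, 15.3 and 17.7 CPM in KO and 40.7, 35.1 and 59.3 CPM in wild type, with a log2 fold change of -1.24 (SE 0.19, adjusted p = 0.0657, edgeR). *Cyp17a1*, an enzyme of androgen synthesis, had 36.4, 23.3 and 27.2 CPM against 51.6, 41.4 and 67.3 CPM (-0.88, adjusted p = 0.277). *Bhmt*, encoding betaine-homocysteine methyltransferase, had 21.3, 13.4 and 16.1 CPM against 38.8, 27.9 and 44.1 CPM (-1.12, adjusted p = 0.0657). *Acta2*, smooth muscle actin and a marker of peritubular myoid cells, had 10.1 to 10.5 CPM against 14.8 to 24.1 CPM (-0.94, adjusted p = 0.160). *Lcn2* (an iron-siderophore carrier), *Snord15b* (a small nucleolar RNA) and *Agt* (angiotensinogen) followed with log2 fold changes of -1.13, -1.04 and -1.24. None passed, but *Insl3* and *Bhmt* were called in 6 of 15 alternatives and *Acta2*, *Agt*, *Cyp17a1* and *Lcn2* in 4 each.

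The marker lists were then read as wholes. All 6 tested Leydig markers had a negative log2 fold change, 5 of them at an unadjusted p of 0.05, where 3.66% of all genes tested did so. The 7 listed Leydig markers summed to 132, 88.2 and 99.4 CPM in KO and 193, 145 and 234 CPM in wild type, without overlap, and the median log2 fold change was -0.87. No Leydig marker was at 0 in all libraries. Besides *Insl3* and *Cyp17a1*, the list's *Cyp11a1* and *Hsd3b1*, enzymes of steroid synthesis, gave -0.86 and -1.07, while *Star* and *Hsd3b6* overlapped. Of 8 tested macrophage markers 6 were negative, 5 at an unadjusted p of 0.05, with a median of -0.62 and sums of 39.8 to 51.4 CPM in KO against 51.2 to 71.6 CPM in wild type, which overlap. Its most abundant member *Mrc1*, the mannose receptor, gave -0.39 and *Csf1r*, the receptor of the macrophage growth factor, -0.84, while *C1qb* and *Cx3cr1* gave 0.01 and 0.10. Sertoli markers were split. *Clu* gave -0.55 (217, 196 and 179 CPM against 298, 242 and 327 CPM) and 3 of 9 were lower at an unadjusted p of 0.05, while the sums of 596 to 683 and 650 to 819 CPM overlapped. All 5 tested myoid markers had a negative log2 fold change, with a median of -0.16. *Acta2* alone was lower at that level, and *Actg2*, the most abundant, gave -0.05. Without wild-type replicate 3, 3 of the 5 were positive and the median was 0.02. Of 8 epididymal markers 4 had counts, with sums of 0.150 to 1.98 CPM in KO and 0.430 to 1.77 CPM in wild type. The epididymal markers *Lcn5*, *Lcn8*, *Lcn9* and *Defb42* were at 0 in all 6 libraries, as were the globin genes *Hba-a1* and *Hbb-bt*. Of 6 red blood cell markers 4 had counts, among them *Alas2* at 17.1 to 24.2 CPM in KO and 16.8 to 22.7 CPM in wild type. Since multiply aligned reads were not counted, a count of 0 does not show that a gene is silent. Among germ cell markers at an unadjusted p of 0.05, 2 of 8 of spermatogonia were lower, 2 of 10 of round spermatids higher and 0 of 13 each of spermatocytes and of elongating and condensing spermatids passed. With each library left out in turn, the Leydig median ranged from -1.04 to -0.68 and the macrophage median from -0.76 to -0.38. Without wild-type replicate 2, the library with the lowest Leydig sum of its genotype, 4 of the 6 Leydig markers passed an adjusted p of 0.05, and 1 did so without KO replicate 1 or without wild-type replicate 3. Without wild-type replicate 1, 2 macrophage markers remained lower at an unadjusted p of 0.05. The part of these cells in the other results was not tested.

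Several lists of sperm genes held more members with higher than with lower values in KO. Of 26 genes of the acrosome, the vesicle whose enzymes open the egg coat, 5 were higher at an unadjusted p of 0.05 against 2.67% of all genes, 0 were lower, and the median log2 fold change was 0.11. Their smallest p belonged to *Lyzl6*, a sperm lysozyme-like protein, with 75.0, 74.6 and 80.0 CPM in KO and 64.1, 63.9 and 43.0 CPM in wild type (0.42, 95% interval 0.13 to 0.71, adjusted p = 0.619). The most abundant, *Tmf1* and *Dkkl1*, gave 0.12 and 0.00. Of 19 genes of sperm-egg fusion and egg activation, 5 were also higher at that level, with a median of 0.12. Among these were *Tmem81* (18.3 to 20.6 against 15.1 to 15.7 CPM, log2 fold change 0.32), *Spaca6* and *Izumo3*, proteins of gamete fusion, and *Plcz1*, the sperm phospholipase that activates the egg (516 ± 61.1 against 425 ± 13.6 CPM, n = 3 each, log2 fold change 0.28), whereas *Adam3* and *Ace* gave 0.11 and -0.05. Of 21 genes of the CatSper channel and sperm ion transport, 3 were higher, with a median of 0.07 and the smallest p for *Kcnu1*, the pore of the sperm potassium channel (95.8 to 105 against 79.2 to 88.0 CPM, log2 fold change 0.29). Of 32 axoneme genes, 2 were higher, among them *Spag17* of the central apparatus (863 to 939 against 729 to 768 CPM, log2 fold change 0.27), with a median of 0.06. No gene of these 4 lists passed an adjusted p of 0.05. Markers of round spermatids had a median like those of the acrosome and fusion lists, with which they share members. *Acrv1*, *Dkkl1*, *Lyzl4*, *Spaca3* and *Tex101* are also on the acrosome list and *Izumo1* on the fusion list, so the medians are not independent. Of the 10 round spermatid markers, 8 had a positive log2 fold change, 2 were higher at the unadjusted level and the median was 0.12. Their sums of 1224 to 1246 CPM in KO and 1029 to 1244 CPM in wild type overlapped, with wild-type replicate 3 the lowest. The median was 0.05 without that library. The part of such cells in these lists was not tested. Leaving out single libraries changed the counts. The fusion list had 0 genes at the unadjusted level without KO replicate 2, 1 without KO replicate 3 or wild-type replicate 1, and 7 higher and 1 lower without wild-type replicate 3, and without wild-type replicate 3 the medians of the acrosome, CatSper and axoneme lists were 0.05, 0.01 and 0.01.

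Lists of other structures and pathways of the spermatid held 0 to 2 genes each at that level with all 6 libraries, where 2.67% of all genes were higher and 3.66% lower. Of 22 genes of the outer dense fibres, fibrous sheath and midpiece, 0 passed an unadjusted p of 0.05 and all were bounded within 2-fold. *Odf2* had 4871 to 6210 CPM in KO and 4792 to 6612 CPM in wild type, *Akap4* of the fibrous sheath 3254 to 4559 against 3596 to 5371 CPM, and *Smcp*, a protein of the mitochondrial capsule, 3459 to 4918 against 2740 to 3725 CPM (0.34, 95% interval -0.04 to 0.72). Of 21 genes of the manchette and nuclear envelope, which shape the nucleus, 0 passed that level, with *Hook1* at 0.10 and *Meig1* at 0.21. Of 16 genes of the perinuclear theca, 10 had a positive log2 fold change and 2 were higher at that level, among them *Cylc2*, a cylicin of the calyx, at 137 to 179 against 95.3 to 142 CPM (0.43). Of 16 genes of sperm glycolysis and 8 testis-specific serine kinases, 0 passed, with *Ldhc* at 0.01 and *Tssk6* at 0.06. Of 19 genes of mRNA storage and translation control, 0 passed and the median was -0.01, with *Pabpc1* at 0.00 and *Fxr1* at 0.07. Of 11 transcription factors of spermiogenesis, *Sox5* alone was higher at that level (100.5 to 109.6 against 74.6 to 97.1 CPM, 0.30), and *Rfx2* and *Tcfl5* gave -0.03 and 0.00. Without wild-type replicate 3, 15 of the 16 theca genes were positive, 6 were higher at the unadjusted level and 1 passed an adjusted p of 0.05, while 0 to 1 were higher at the unadjusted level without any other single library. In the same fit without wild-type replicate 3, 3 genes of the outer dense fibres, fibrous sheath and midpiece and 2 of the manchette and nuclear envelope were higher.

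**Figure D4:**
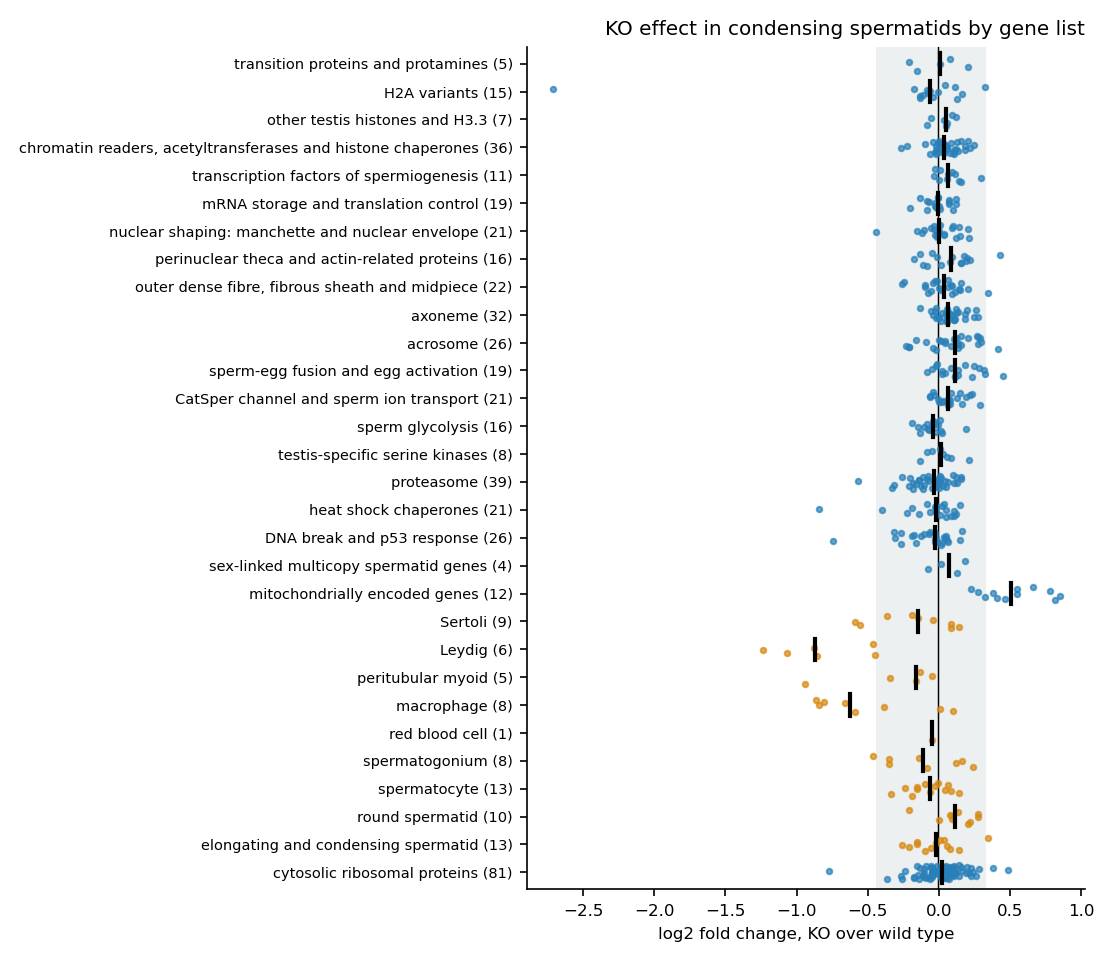
Log2 fold change, KO over wild type, of each tested member of the gene lists (points; blue for pathways and structures, orange for cell type markers), with the list median (black bar) and the number tested in parentheses; the grey band holds the middle 90% of all genes tested. Leydig and macrophage markers lie to the left, with medians of -0.87 and -0.62, mitochondrially encoded genes to the right with a median of 0.51, and the other medians between -0.16 and 0.12.

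Mitochondrially encoded RNAs were the list with the largest positive median. All 12 tested genes had a positive log2 fold change, from 0.22 to 0.85 with a median of 0.51. Over all genes tested, 47.8% were positive and the median was -0.01. At an unadjusted p of 0.05, 7 of the 12 were higher, where 2.67% of all genes were, and none passed at an adjusted p. *ND5*, a subunit of respiratory complex I, had 768, 752 and 533 CPM in KO and 545, 373 and 377 CPM in wild type, so that the genotypes overlapped (0.67, 95% interval 0.30 to 1.03, adjusted p = 0.446, edgeR). *mt-Rnr2*, the large mitochondrial ribosomal RNA, had 48826, 45074 and 44766 CPM in KO and 44742, 30675 and 43247 CPM in wild type, where no library reached the KO range, and gave 0.22 (-0.27 to 0.72). The list summed to 71516 to 80794 CPM in KO, and to 70047, 47270 and 66787 CPM in wild type, where replicate 2 was the lowest. Without that library the median was 0.34, with 6 of 12 genes higher at the unadjusted level, and over all libraries left out in turn it ranged from 0.34 to 0.75, with 10 genes higher and 2 past an adjusted p of 0.05 without wild-type replicate 1. The precursor of cytosolic ribosomal RNA, *Rn45s*, took 1.41% to 1.57% of counts on genes in KO and 2.34% to 3.37% in wild type, without overlap. *Rn45s* did not pass in the main fit but was called lower in KO in 3 of 15 alternatives. In the DESeq2 Wald test its log2 fold change was -0.86 (adjusted p = 3.50e-07). Its part in these results was not tested, and with both kinds of RNA left out of the fit *H2afb1* was again the 1 gene called.

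In lists that track damage or stress, no gene passed an adjusted p of 0.05. Of 26 genes of the response to DNA breaks and of p53, 2 were lower at an unadjusted p of 0.05, where 3.66% of all genes were, *Bax* at 1.37 to 1.70 CPM in KO and 1.97 to 3.37 CPM in wild type (-0.74) and *Sesn2* (-0.31), and the median was -0.03. *Atr* and *Lig3*, the most abundant, gave 0.05 and 0.06. Of 39 proteasome genes 1 was lower, *Psmb5* (-0.33), with a median of -0.03, and of 21 heat shock chaperones 1 was lower, *Hspb9*, a testis small heat shock protein at 427 to 594 against 622 to 755 CPM (-0.40, 95% interval -0.70 to -0.10). Of 81 cytosolic ribosomal protein genes 1 was lower, *Rpl29* (-0.77), and the median was 0.02. The 513 tested X-linked genes had a median of -0.05, with 10 higher and 20 lower at that level, and of the 11 tested Y-linked genes 0 passed. Of 4 tested multicopy genes of the sex chromosomes 0 passed as well. These counts moved with single libraries. The ribosomal protein list had 9 higher and 2 lower without wild-type replicate 1 and 4 lower without wild-type replicate 2, and the proteasome list had 5 lower without wild-type replicate 3. Without any 1 of the KO replicates 0 genes of the DNA break list passed, and 3 heat shock chaperones were lower and 1 higher without wild-type replicate 2. Without wild-type replicate 2 the X-linked counts were 6 higher and 53 lower, and without wild-type replicate 3 they were 30 higher and 11 lower.

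Whether the KO effect in condensing spermatids differs from that in earlier cells was tested as an interaction on the 18 libraries of the 3 replicated stages. Against round spermatids 0 of 14479 genes passed an adjusted p of 0.05 in edgeR, 407 (2.81%) at an unadjusted p of 0.05 and 0 in DESeq2. Against pachytene spermatocytes 1 gene passed (0.00691%), the beta-defensin gene *Defb19*, and 882 (6.09%) at an unadjusted p. Wild-type replicates 2 and 3 of the round spermatids agreed nearly within sampling noise, with a mean chi-square of 1.06 per gene where the other replicate pairs of the 3 stages gave 1.72 to 12.2, although the study describes the round spermatid replicates as independent. These values do not show whether the pair is 1 library. With this pair summed and counted as 1, a choice made after seeing the data, 0 genes passed in either contrast, with 304 and 824 at an unadjusted p. *H2afb1* fell at each stage, from 14.3 to 39.7 CPM to 3.15 to 5.12 CPM in pachytene spermatocytes, and from 198 to 210 CPM to 20.9 to 25.8 CPM in round spermatids. Its log2 fold change was -2.77 in pachytene spermatocytes (adjusted p = 0.000135, edgeR) and -3.09 in round spermatids (adjusted p = 3.23e-07). The effect in condensing spermatids was 0.07 (SE 0.39) and 0.39 (SE 0.32) above these on the log2 scale, and neither difference passed the test. In wild type its level in round spermatids overlapped that in condensing spermatids, 163 to 248 CPM on the common scale. Both were above pachytene spermatocytes. The pachytene libraries also held the spermatid marker *Prm1*, at 710, 632 and 248 CPM in wild type, where *H2afb1* had 39.7, 34.4 and 14.3 CPM. In KO they held 360, 396 and 343 CPM of *Prm1*. The part of spermatid RNA in the pachytene values of *H2afb1* was not tested.

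The genes chosen for the smallest p in condensing spermatids were then read in the round and pachytene libraries, whose values the rule that chose them did not use. The labels do not say whether fractions of different stages came from the same animals. Of the 8 genes with higher values in KO, 7 had the same sign in round spermatids, 4 of them at an unadjusted p of 0.05, where 2.19% of all genes were higher at that level. In pachytene spermatocytes 7 had the same sign, 4 at that level, where 9.56% of all genes were higher. At an adjusted p of 0.05, 0.00691% of all genes passed in round spermatids and 0.0276% in pachytene spermatocytes. *Sptbn4* was higher in all KO than in all wild-type libraries of both stages, at 70.8 to 89.4 against 40.3 to 48.5 CPM in round spermatids and 49.4 to 109 against 26.5 to 34.5 CPM in pachytene spermatocytes. Its log2 fold changes were 0.87 (adjusted p = 0.267) and 1.21 (adjusted p = 0.0356), so that it passed the test in pachytene spermatocytes in this fit. With the near-identical round libraries counted as 1 it did not (adjusted p = 0.0606). *Vav2* had 176 to 192 CPM in the KO round spermatids and 18.3 to 71.8 CPM in wild type (2.30, adjusted p = 0.254), and *Ccdc7a* had 51.0, 186 and 176 CPM against 55.2 to 56.7 CPM (1.30, adjusted p = 0.604). *Mrpl33* gave 0.62 in round spermatids and 0.19 in pachytene spermatocytes. *Spata31*, *Gm5142* and *1700008J07Rik* gave values between -0.09 and 0.18 at both stages.

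The genes with lower values in KO varied across stages. With *H2afb1* among the 8, 2 were lower at an unadjusted p of 0.05 in round spermatids and 7 in pachytene spermatocytes, where 2.86% and 4.13% of all genes were. Apart from *H2afb1*, *Insl3*, *Bhmt*, *Cyp17a1*, *Lcn2* and *Agt* were between 0.597 and 4.58 CPM in all round spermatid libraries, where the log2 fold changes of -1.76 to -0.58 had wide intervals. In pachytene spermatocytes, where they reached 2.15 to 46.4 CPM, the same 5 genes gave -1.58 to -0.91 at an unadjusted p of 0.05 and adjusted p of 0.172 to 0.262, with overlapping genotypes, since KO replicate 1 was within the wild-type range. *Snord15b* gave -1.28 there and 0.38 in round spermatids, and *Acta2* gave 0.10 and -0.20.

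**Figure D5:**
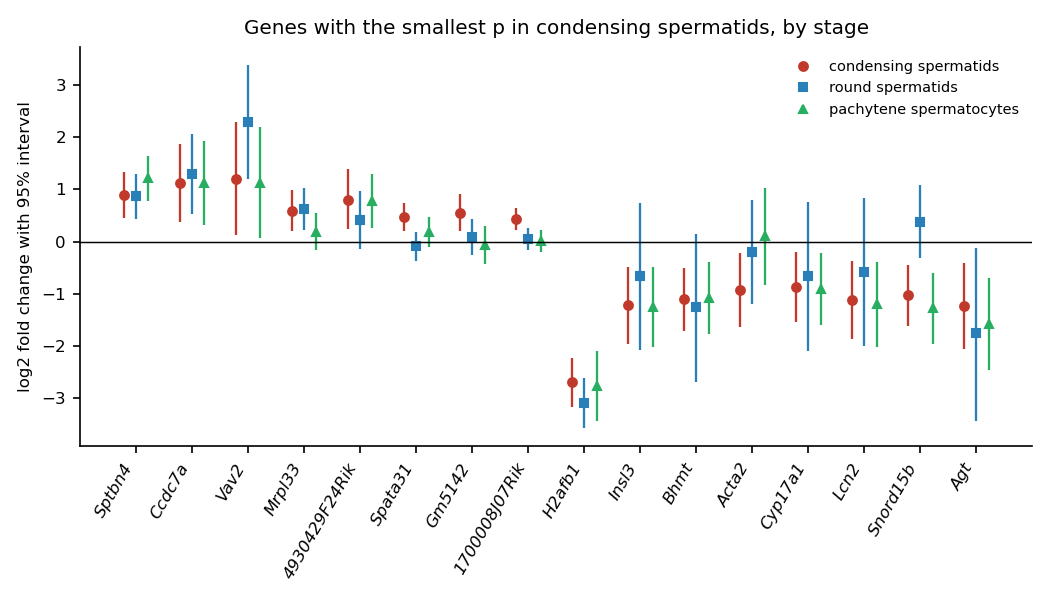
Log2 fold change, KO over wild type, with its 95% interval from the fit on 18 libraries for *H2afb1* and the 15 other genes chosen for the smallest p in condensing spermatids, in condensing spermatids (red circles), round spermatids (blue squares) and pachytene spermatocytes (green triangles). *Sptbn4*, *Ccdc7a* and *Vav2* lie above 0 and *H2afb1* and *Agt* below 0 with their whole intervals at all 3 stages, while *Spata31*, *Gm5142* and *1700008J07Rik* lie near 0 outside condensing spermatids.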

How the data were processed

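The authors aligned untrimmed paired reads to mm10 with STAR (version 2.7.11b in the submitters' processing notes) and counted with HTSeq the reads inside exons, on the transcribed strand, with strict intersection and without multiply aligned reads. They deposited raw read counts per gene and library, neither normalized nor pooled. The 5 closing rows that name no gene, 40.2% to 48.4% of reads here, were left out, and each file's value column was used. Groups came from the labels. Counts were tested with edgeR 4.0.16 (R 4.3.3), by the quasi-likelihood test with TMM factors, the filterByExpr filter and Benjamini-Hochberg adjustment over all genes tested. CPM are counts per 1000000 of the TMM-scaled library. Intervals are 95% intervals from the quasi-likelihood standard error. The steps were tested on simulated data. Alternatives were DESeq2 1.42.0, its size factors, limma-voom (limma 3.58.1), a fold change above 1.2, other filters and samples, a block for the replicate number, leaving out each library and, chosen after seeing the data, near-identical libraries summed.

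The members and the gene lists were chosen with earlier results of these data known. The genes named are *H2afb1*, any gene with an adjusted p under 0.05, up to 8 per direction with the smallest p, at least 5 CPM and no overlap, all tested transition protein, protamine and H2A variant genes, the 2 most abundant and the smallest-p member of every other list, the most abundant marker of each cell type, and up to 3 genes per interaction. Further members of the Leydig, macrophage, fusion, chromatin and p53 lists, the genes at 0, and *Rn45s* were named after their values were seen. Symbols, positions and chromosomes came from RefSeq annotation of GRCm38, to which 23218 listed genes could be joined by their symbol and 1061 through a former one.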

Additional observations from a re-analysis of the deposited data

Results flagged for a closer look

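*Defb19*, a beta-defensin gene of the testis, was the 1 gene whose KO effect differed between condensing spermatids and pachytene spermatocytes, by 2.36 on the log2 scale (SE 0.41, adjusted p = 0.0311, edgeR). In pachytene spermatocytes it had 0.939, 0.495 and 0.573 CPM in KO and 3.16, 3.25 and 3.77 CPM in wild type, without overlap, and a log2 fold change of -2.30. In condensing spermatids, where its level was far higher, it had 64.7, 59.8 and 59.5 CPM in KO and 72.4, 47.7 and 56.6 CPM in wild type, with a log2 fold change of 0.06. In round spermatids the log2 fold change was -0.27. With the near-identical round wild-type libraries counted as 1, with the replicate number as a block, or without replicate number 1 or 2, no gene passed in edgeR, with 824, 822, 562 and 336 genes at an unadjusted p of 0.05. Without replicate number 3, 37 genes passed, with 2359 at an unadjusted p, and without a filter 2 passed. The pachytene values rest on few reads, since 3 counts correspond to 0.366 to 0.517 CPM there.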

How the results depend on the processing

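The number of genes called was 1 with DESeq2 size factors, at least 10 counts in every library, all 18 libraries, limma-voom, a fold change above 1.2 and without mitochondrial and ribosomal RNA. It was 13 with the DESeq2 Wald test, 27 without a filter, 26 with the replicate number as a block, and 1 to 24 with each library left out, and why these fits call more was not tested. Same-numbered libraries of the genotypes had correlations of their deviations of 0.0681, -0.0284 and 0.0616, so the numbers were not taken to pair them. *H2afb1* was called in every fit. The number of genes bounded within 2-fold in KO condensing spermatids lay between 11228 and 12427. The count of genes with another effect than in pachytene spermatocytes was 2 without a filter, 0 with the replicate block, 0 with the near-identical round libraries summed and 0 to 37 with each replicate number left out. Against round spermatids it was 0 in every fit. For the other named genes, 1146 of 1296 values under an alternative had the same sign and call, 54 passed the threshold in an alternative, and 96 of genes without a call changed sign. Of 415 list medians 3 moved by more than the replicate SD. Depth limits genes under 3 CPM most.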

Other observations

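The H2A.L.2 gene was also lower in spermatozoa, which were not tested because the KO had 1 library. *H2afb1* had 48 of 3297783 counts there in KO, or 14.6 per 1000000, and 198 and 130 counts in the wild-type libraries, or 57.4 and 46.9 per 1000000.

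*Vav2* and *Lcn2* lie on the same chromosome as *H2afb1*, 9.27 and 14.4 megabases away. Among the 125 tested genes within 10 megabases on either side, *H2afb1* left out, 3 were higher and 12 lower at an unadjusted p of 0.05, or 12% against 6.33% of all genes tested, and their median log2 fold change was 0.00. The window was set after the values were seen, and no test was made of it.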
